A study of Mus musculus with 9 samples.

Results

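The epidermal differentiation complex is a run of neighbouring genes on mouse chromosome 3 that encode the proteins of the cornified envelope. Its genes were chosen by symbol alone: every gene whose symbol starts with Lce or Sprr, together with Flg, Flg2, Hrnr, Rptn, Tchh, Tchhl1, Lor, Ivl, Crct1 and Lelp1. The rule found 40 genes, all on chromosome 3, of the 22180 genes that the arrays name through a transcript cluster with 1 symbol. A transcript cluster is the array's unit for a gene. By subfamily these were 11 Lce1, 6 Lce3 and 1 other Lce gene (Lce6a), 2 Sprr1, 8 Sprr2 and 2 other Sprr genes (Sprr3 and Sprr4), 6 S100-fused genes and 4 single genes (Lor, Ivl, Crct1 and Lelp1).

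In stratified epithelia such as the epidermis, keratinocytes that leave the basal layer switch on the genes of this complex in their last living stage. Loricrin, involucrin, the small proline-rich proteins (Sprr) and the late cornified envelope proteins (Lce) are then joined by transglutaminases into an insoluble shell under the cell membrane, while S100-fused proteins such as filaggrin bundle the keratins. The alveolar epithelium of the healthy lung forms no cornified envelope, whereas several of these genes are known from squamous metaplasia of the airways.

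Lung organoids of 3 groups were measured on 9 arrays, 3 for each group. The cells came from adult male BALB/c mice, 8 to 12 weeks old at the start. CSD14 organoids came from mice that breathed cigarette smoke in a whole-body chamber for 12 weeks and were collected on culture day 14. CSD5 organoids came from smoke-exposed mice and were collected on culture day 5, and ND14 organoids came from naïve mice kept in clean air and were collected on culture day 14. In all groups, minced and pronase-digested lung cells were grown in Matrigel, with no sort for a cell type described, so that the organoids may hold several kinds of epithelial cell. The medium held 5% serum until the change after day 6 and 2% serum thereafter, with or without inhibitors of ROCK and TGF-β, and which of these each array had is not given in the sources used here. CSD14 and ND14 thus shared culture day and differed in exposure. CSD14 and CSD5 shared exposure but differed in day and medium, which cannot be told apart, and CSD5 and ND14 differed in all of these. The labels call the arrays biological replicates. Nothing states that they came from separate animals or cultures, so p-values measure only the spread between these samples, which may be technical.

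Values are log2 signals. Array medians lay between 2.79 and 3.04, and the highest value on an array between 12.33 and 12.49. One array stood apart from its label. CSD5 replicate 1 had a mean correlation of 0.9906 with the ND14 arrays over all transcript clusters, of 0.9727 with the other CSD5 arrays and of 0.9631 with the CSD14 arrays, so the counts of calls over the complex and over each list, at an adjusted p under 0.05, are given with and without it. Markers of the lung epithelium were present. Nkx2-1, the lineage factor of the lung, read 5.05, 5.23 and 4.87 in CSD14, 4.61, 4.74 and 4.63 in CSD5 and 4.02, 4.22 and 4.17 in ND14, and Epcam, an epithelial adhesion protein, ranged from 7.60 to 8.40 over the 9 arrays. The endothelial markers Pecam1, Cdh5 and Kdr averaged between 2.57 and 3.06 per array, near the array medians.

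In CSD14 organoids the complex was far lower than in ND14 organoids. Of its 40 genes, 27 were lower and 0 were higher at an adjusted p under 0.05 (limma over all 9 arrays, Benjamini-Hochberg over 34472 transcript clusters), where 3.66% of all transcript clusters were called lower and 5.48% higher. The median log2 fold change of the members was -3.54, against 0 for all transcript clusters. Without CSD5 replicate 1, 30 members were lower and 0 higher, where 5.40% of all were lower and 6.47% higher. The 3 members added were Sprr2k, Lce1k and Hrnr. With no moderation of the spread, 8 were lower (Lor, Sprr2g, Sprr3, Sprr1a, Lce1a2, Lce3a, Lce3f and Crct1), so the calls of the other members, Rptn, Sprr2d and Flg among them, ended there. Calls fell over the whole array too, with 397 of the 34472 transcript clusters lower there, against 1263 with moderation. At the threshold of the study's methods, which asks for a fold change over 2 and an unadjusted p under 0.05, 29 members were lower, where 2.44% of all were. In tissue or organoids measured in bulk, fewer cells of a type and less RNA per cell cannot be told apart.

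**Figure D1:**
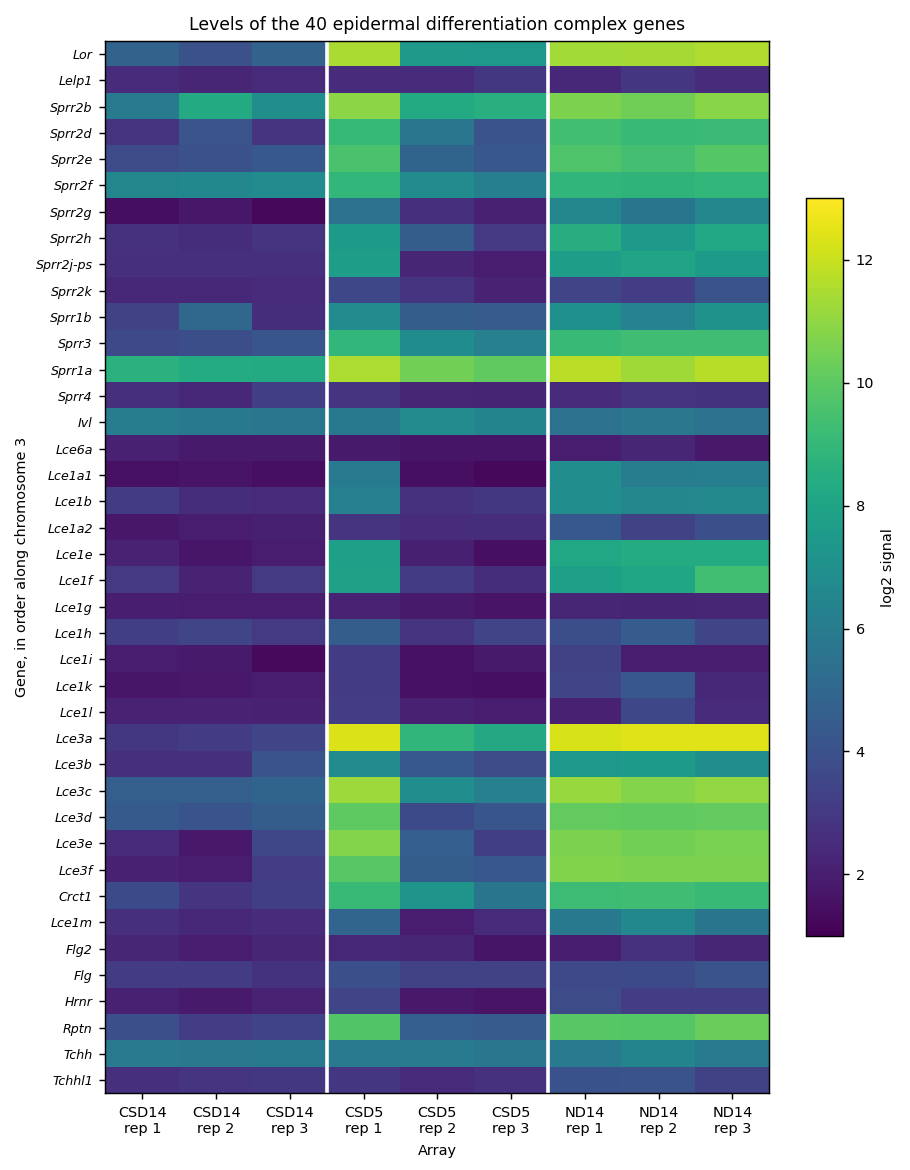
Log2 signal (colour scale) of the 40 genes of the complex on each array, with genes as rows in their order along chromosome 3 and arrays as columns by group (CSD14, CSD5, ND14). Most rows are dark in CSD14 and bright in ND14, and the column of CSD5 replicate 1 looks like those of ND14.

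Signal was near the floor for part of the complex. In CSD14, 17 members read at or below the array median on every array, and 8 of these were among the 27 called (Sprr2g, Sprr2h, Sprr2j-ps, Lce1a1, Lce1a2, Lce1e, Lce1m and Tchhl1), so their fold changes are not exact. In ND14 only 5 members did so, none of them among those called. Lce6a, Lce1g and Flg2 lay at or below the median on all 9 arrays, and no change is read for them.

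The Lce3 genes, which encode late cornified envelope proteins known in human skin from epidermis that is inflamed or healing, gave the largest differences. All 6 were lower in CSD14 than in ND14, with log2 fold changes between -9.19 and -4.14 and a median of -7.11. Lce3a read 2.93, 3.11 and 3.49 in CSD14, 12.37, 8.89 and 8.25 in CSD5 and 12.26, 12.43 and 12.40 in ND14. Its CSD14 and ND14 arrays were thus separated by a wide gap, and the CSD5 arrays lay either inside the ND14 range or between both groups. The log2 fold change of CSD14 over ND14 was -9.19 ± 0.84 (SE, adjusted p = 0.000426 by limma) and that of CSD14 over CSD5 was -6.66 ± 0.84 (adjusted p = 0.0052). The ND14 values lie at the top of the range of the arrays and the CSD14 values near the array medians, so these sizes are not exact.

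Lce3f read 2.12, 1.95 and 3.16 in CSD14, 9.88, 4.53 and 4.27 in CSD5 and 10.71, 10.63 and 10.62 in ND14. Lce3d read 4.39, 4.13 and 4.56 in CSD14, 10.04, 3.69 and 4.23 in CSD5 and 10.11, 10.06 and 10.11 in ND14. CSD5 replicates 2 and 3 therefore lay within or below the CSD14 range for Lce3d and above it for Lce3f and Lce3a. Lce3b, Lce3c and Lce3e followed, with log2 fold changes of -4.14, -6.29 and -7.93 in CSD14 over ND14.

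The 100 bases before the start of 4 Lce3 genes are given (RefSeq, GRCm38.p6, 5′ to 3′ on the gene's strand). All 4 were lower in CSD14 than in ND14, but they did not move together in CSD5, where Lce3a and Lce3d differed. Capitals mark the longest stretch present in all 4, CATGCTTG, and the letters ATAAAA. These sequences were chosen after the values were seen.
Lce3a (chr3:92926231-92926330, minus strand): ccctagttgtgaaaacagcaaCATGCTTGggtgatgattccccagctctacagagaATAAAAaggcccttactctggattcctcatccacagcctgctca
Lce3c (chr3:92944386-92944485, plus strand): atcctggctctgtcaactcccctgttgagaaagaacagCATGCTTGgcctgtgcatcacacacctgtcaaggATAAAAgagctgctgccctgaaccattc
Lce3d (chr3:92957290-92957389, plus strand): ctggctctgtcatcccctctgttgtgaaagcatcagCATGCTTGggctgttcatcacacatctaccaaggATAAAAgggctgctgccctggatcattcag
Lce3f (chr3:92992117-92992216, plus strand): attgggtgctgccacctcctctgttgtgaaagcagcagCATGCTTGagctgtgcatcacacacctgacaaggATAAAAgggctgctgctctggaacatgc

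On either strand, CATGCTTG was found in the windows of 5 of the 6 Lce3 genes, all but Lce3b. It was in those of 0 of the 10 Lce1 genes with a window and in 0.992% of the 32851 RefSeq windows. CATGCTTG was taken from the 4 windows shown, so their matches were fixed in advance, and only that of Lce3e was not. The shares are therefore no measure of enrichment. Each window runs from 250 bases before the start to 50 after it. Windows were found for 36 of the 40 members. Identity between pairs of Lce3 windows over the 250 bases before the start ranged from 55.1% to 83.7%, and Lce3d and Lce3e were the closest pair. These matches describe letters only.

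The Lce1 genes, which encode late cornified envelope proteins known in human skin from normal epidermis, divided into those with a high ND14 signal and those near the floor. Of 11, 6 were lower in CSD14 than in ND14, with a median log2 fold change of -1.95 over all 11, and 7 were lower without CSD5 replicate 1. Lce1e read 2.17, 1.71 and 1.96 in CSD14, 7.75, 2.06 and 1.47 in CSD5 and 8.19, 8.36 and 8.39 in ND14. The difference of CSD14 over ND14 was -6.37 ± 1.30 (SE, adjusted p = 0.0135 by limma), from a CSD14 level at or below the array medians. It missed the threshold when any 1 of the CSD14 or ND14 arrays was left out (adjusted p up to 0.0536). The SE includes the spread of the CSD5 arrays (SD 3.47), while the SD was 0.23 in CSD14 and 0.11 in ND14. Without CSD5 replicate 1 the SE was 0.17 (adjusted p = 4.75e-08 by limma). Lce1f read 2.99, 2.14 and 3.05 in CSD14, 7.89, 3.08 and 2.57 in CSD5 and 7.78, 8.12 and 9.35 in ND14, a log2 fold change of -5.69 ± 1.15 (adjusted p = 0.0133). For both genes CSD5 replicates 2 and 3 lay within the CSD14 range or within 1 log2 unit of it.

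The other genes called were Lce1a1 (log2 fold change -4.81), Lce1b (-3.99), Lce1m (-3.51) and Lce1a2 (-1.95). Lce1m has a second transcript cluster, with 3.58, 3.28 and 3.87 in CSD14, 4.26, 3.40 and 3.14 in CSD5 and 4.29, 4.56 and 4.20 in ND14, a narrower gap than that of its main one.

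The genes not called were neighbours. Lce1g, Lce1h, Lce1i, Lce1k and Lce1l follow Lce1f along the chromosome in this order, with no other measured member between them, and none passed in CSD14 over ND14. Kprp, a measured gene outside the rule, lies between Lce1k and Lce1l. It was lower in that comparison (log2 fold change -5.49, adjusted p = 0.00972 by limma). Lce1h read 3.22, 3.51 and 3.04 in CSD14, 4.55, 2.85 and 3.51 in CSD5 and 3.90, 4.51 and 3.51 in ND14, so that the CSD14 and ND14 ranges met (log2 fold change -0.72 ± 0.39, adjusted p = 0.384). Lce1k read 1.71, 1.84 and 1.91 in CSD14, 3.14, 1.54 and 1.48 in CSD5 and 3.50, 4.26 and 2.33 in ND14. Its ND14 arrays were scattered (-1.54 ± 0.51, adjusted p = 0.108, and 0.0291 without CSD5 replicate 1). Lce1g stayed between 1.64 and 2.31 and Lce1i between 1.30 and 3.39 over the 9 arrays, with log2 fold changes of -0.31 ± 0.13 (adjusted p = 0.22) and -0.74 ± 0.46 (adjusted p = 0.472). Low probe response and low RNA cannot be told apart in such values.

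To compare Lce1 genes that were called with neighbours that were not, Lce1e and Lce1b are set beside Lce1h, which missed the test, and Lce1g, for which no change is read. Capitals mark the longest stretches that all 4 share, CACTGTCTCAC and TCAGAATAAAA, which are equal in length (100 bases before the start, as above).
Lce1e (chr3:92709075-92709174, minus strand): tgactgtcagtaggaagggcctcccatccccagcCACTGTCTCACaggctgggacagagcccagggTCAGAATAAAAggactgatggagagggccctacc
Lce1b (chr3:92656927-92657026, minus strand): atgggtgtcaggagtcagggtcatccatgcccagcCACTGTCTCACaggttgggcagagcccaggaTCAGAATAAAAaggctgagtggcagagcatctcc
Lce1h (chr3:92765066-92765165, minus strand): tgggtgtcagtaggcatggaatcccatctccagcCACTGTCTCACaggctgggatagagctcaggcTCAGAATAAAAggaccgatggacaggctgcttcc
Lce1g (chr3:92752339-92752438, minus strand): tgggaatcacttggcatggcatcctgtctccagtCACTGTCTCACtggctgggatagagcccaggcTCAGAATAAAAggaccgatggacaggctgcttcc

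CACTGTCTCAC was found in 6 of the 10 Lce1 windows (Lce1a1, Lce1b, Lce1a2, Lce1e, Lce1g and Lce1h), in 0 of the 6 Lce3 windows and in 0.049% of all RefSeq windows. TCAGAATAAAA, which contains ATAAAA, was also in 6 of the 10 (Lce1b, Lce1a2, Lce1e, Lce1g, Lce1h and Lce1i), in 0 of the 6 Lce3 windows and in 0.067% of all. Both stretches were taken from the 4 windows shown, so 4 of the 6 matches of each were fixed in advance. These shares are no measure of enrichment either. ATAAAA, searched on both strands, was in 9 of the 10 Lce1 and 6 of the 6 Lce3 windows and in 18.5% of all windows. Over the 250 bases before the start, Lce1e was 79.5% identical to Lce1g and 79.1% identical to Lce1h, and Lce1g was 84.5% identical to Lce1h. Lce1b was 65.1% identical to Lce1g and 67.3% to Lce1h, and Lce1e was 59.8% identical to Lce1k and 57.1% to Lce1l, which were not called either. Over all pairs of Lce1 windows identity ranged from 50.5% to 85.6%.

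Some Lce1 and Sprr2 genes share their transcript cluster with near-identical copies, and no value was assigned to 1 gene there. The cluster shared by Lce1c and Lce1k read 2.29, 1.75 and 2.62 in CSD14, 9.29, 2.88 and 2.43 in CSD5 and 9.34, 9.52 and 9.36 in ND14, and the cluster shared by Sprr2i, Sprr2f and Sprr2e read 1.72, 1.66 and 1.69 in CSD14, 4.84, 1.67 and 1.57 in CSD5 and 5.57, 5.72 and 5.54 in ND14. Both had the order seen in their families. A cluster shared by Sprr2a1, Sprr2a2 and Sprr2a3 read 12.09, 12.19 and 12.09 in CSD14, 12.07, 12.22 and 11.97 in CSD5 and 12.11, 11.84 and 12.07 in ND14, so its groups overlapped, at a signal within 1 log2 unit of the highest on each array. The other 2 clusters of these 3 genes held identical values, of 7.23, 7.13 and 7.07 in CSD14, 6.58, 6.92 and 7.05 in CSD5 and 7.31, 7.34 and 7.25 in ND14, so CSD14 and ND14 did not overlap there but lay close together. A cluster shared by these 3 genes and Sprr2b read 10.68 on 8 of the 9 arrays.

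**Figure D2:**
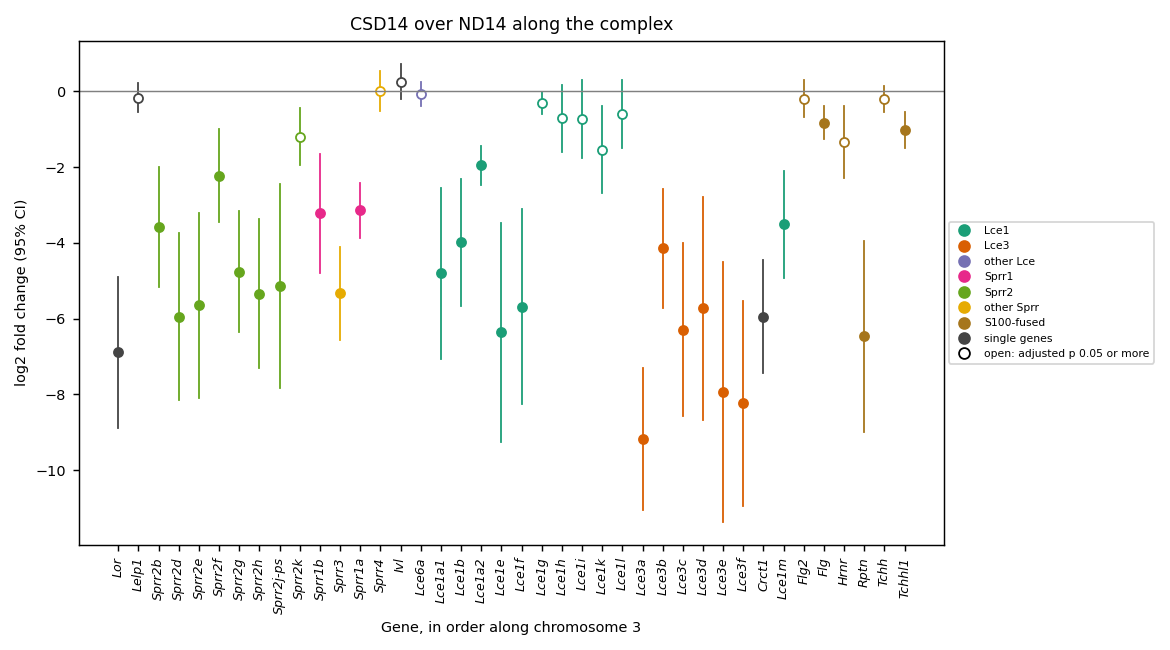
Log2 fold change of CSD14 over ND14 (points, with 95% confidence intervals) for the 40 members in their order along chromosome 3, coloured by subfamily, with filled points for genes with an adjusted p under 0.05. The 6 Lce3 genes lie between -9.19 and -4.14, while Sprr4, Ivl and Lce6a, which are consecutive members, lie near 0.

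The small proline-rich proteins bridge other envelope proteins and are induced in stressed or stratified epithelia. Of the 8 Sprr2 genes, 7 were lower in CSD14 than in ND14 and all 8 without CSD5 replicate 1, with a median log2 fold change of -4.96. Sprr2b read 5.89, 8.35 and 6.95 in CSD14, 10.91, 8.32 and 8.56 in CSD5 and 10.65, 10.42 and 10.86 in ND14, and differed by -3.58 ± 0.71 (SE, adjusted p = 0.0124 by limma). Sprr2d read 2.82, 4.18 and 2.82 in CSD14, 9.02, 5.71 and 4.08 in CSD5 and 9.39, 9.08 and 9.20 in ND14, a difference of -5.95 ± 0.99 (adjusted p = 0.0053). CSD14 replicate 2 was the highest of its group for both genes, yet below every ND14 array. Sprr2k read 2.34, 2.37 and 2.41 in CSD14, 3.61, 2.83 and 2.13 in CSD5 and 3.51, 3.16 and 4.05 in ND14. It missed the threshold (-1.20 ± 0.33, adjusted p = 0.0544) and passed without CSD5 replicate 1 (adjusted p = 0.00843). Sprr2j-ps, annotated as a pseudogene, differed by -5.14 ± 1.21 (adjusted p = 0.026), and its signals of 2.29 and 1.95 in CSD5 replicates 2 and 3 lay below all CSD14 arrays. Sprr2 genes are near-identical copies, so signal may be shared among them.

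Both Sprr1 genes were lower. Sprr1a, a small proline-rich protein also induced by injury outside the skin, read 8.65, 8.39 and 8.33 in CSD14, 11.54, 10.44 and 10.05 in CSD5 and 11.78, 11.30 and 11.72 in ND14. It remained well above the array medians in every CSD14 array while falling by 3.14 ± 0.32 on the log2 scale (SE, adjusted p = 0.000777 by limma). Sprr1b read 3.30, 4.99 and 2.57 in CSD14, 6.80, 4.54 and 4.44 in CSD5 and 7.04, 6.34 and 7.13 in ND14, a difference of -3.22 ± 0.70 (adjusted p = 0.0187) with a wider spread in CSD14.

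Sprr3, the member typical of the oesophagus and other moist stratified epithelia, read 3.63, 3.88 and 4.21 in CSD14, 8.93, 6.83 and 6.22 in CSD5 and 9.12, 9.31 and 9.30 in ND14. It differed by -5.34 ± 0.55 between CSD14 and ND14 (adjusted p = 0.000783) and by -3.42 ± 0.55 between CSD14 and CSD5 (adjusted p = 0.0151 by limma), and its groups did not overlap in either comparison. Sprr4 stayed between 2.24 and 3.21 on all arrays (0.01 ± 0.24 in CSD14 over ND14, adjusted p = 0.987).

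Among the single genes, Lor, which encodes loricrin, the main protein of the epidermal cornified envelope, read 4.81, 3.98 and 4.83 in CSD14, 11.46, 7.43 and 7.40 in CSD5 and 11.35, 11.40 and 11.55 in ND14. The difference of CSD14 over ND14 was -6.89 ± 0.89 (SE, adjusted p = 0.00199 by limma), a level 119 times lower. Crct1, a cysteine-rich gene expressed in oesophagus and skin, read 3.68, 2.87 and 3.24 in CSD14, 9.10, 7.20 and 5.65 in CSD5 and 9.22, 9.30 and 9.12 in ND14 (-5.95 ± 0.67, adjusted p = 0.00111). Both lacked any overlap between CSD14 and either other group.

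Ivl did not follow. It encodes involucrin, an early scaffold of the envelope, and read 6.04, 5.85 and 5.69 in CSD14, 5.86, 6.77 and 6.40 in CSD5 and 5.50, 5.78 and 5.52 in ND14. The CSD14 and ND14 ranges overlapped (0.26 ± 0.21, adjusted p = 0.617, 95% confidence interval -0.21 to 0.73), and all arrays lay well above the array medians. Lelp1, a late cornified envelope-like gene, read between 2.27 and 2.96 on the 9 arrays (-0.17 ± 0.17, adjusted p = 0.72).

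**Figure D3:**
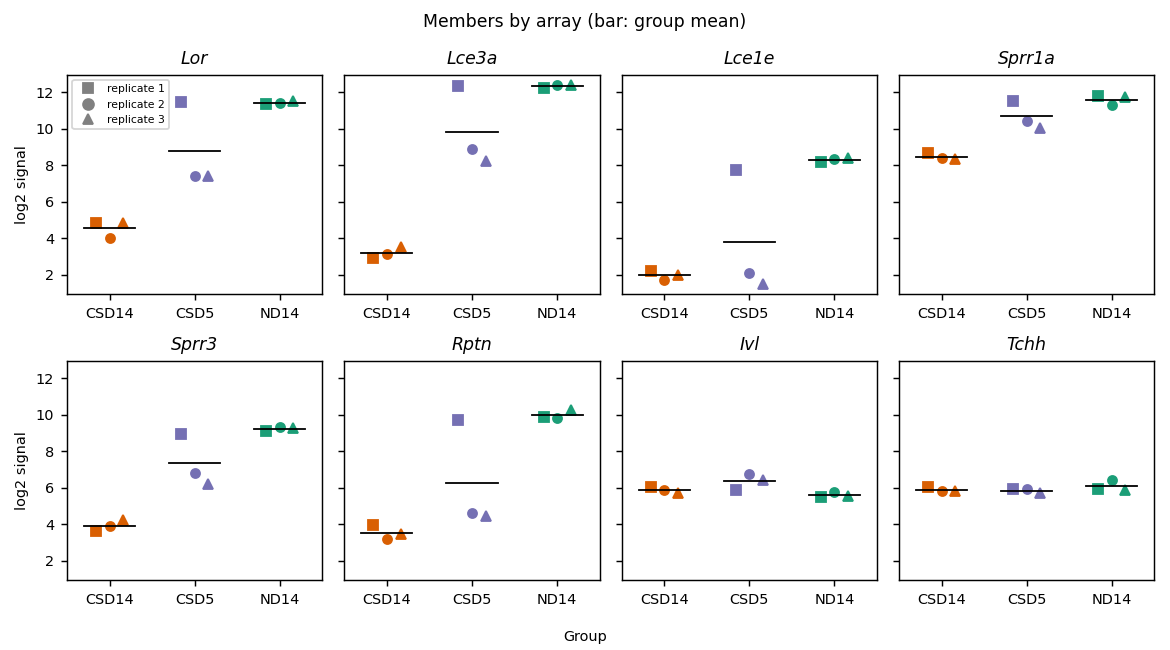
Log2 signal of 8 members on each array by group, with a marker shape for each replicate number and a bar at the group mean. Lor, Lce3a, Lce1e, Sprr1a, Sprr3 and Rptn are lower on all 3 CSD14 arrays than on any ND14 array, with CSD5 replicate 1 near ND14, while Ivl and Tchh stay between 5.50 and 6.77.

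The S100-fused proteins, large repeat proteins with a calcium-binding start, were mixed. Rptn, which encodes repetin, read 3.95, 3.16 and 3.43 in CSD14, 9.72, 4.60 and 4.47 in CSD5 and 9.88, 9.82 and 10.26 in ND14 (-6.47 ± 1.13, SE, adjusted p = 0.00673 by limma). Flg, the filaggrin gene, read 3.11, 3.07 and 2.75 in CSD14, 3.92, 3.34 and 3.34 in CSD5 and 3.63, 3.70 and 4.07 in ND14 (-0.82 ± 0.19, adjusted p = 0.0248). Tchhl1, a trichohyalin-like gene, read 2.63, 2.79 and 2.95 in CSD14, 2.90, 2.47 and 2.69 in CSD5 and 4.03, 4.09 and 3.32 in ND14 (-1.02 ± 0.21, adjusted p = 0.0134). Flg and Tchhl1 thus passed the test with small differences close to the array medians, and Flg did not when any 1 of the CSD14 or ND14 arrays was left out (adjusted p up to 0.0992).

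Hrnr, the hornerin gene, read 2.10, 1.87 and 2.15 in CSD14, 3.51, 1.84 and 1.61 in CSD5 and 3.79, 3.18 and 3.16 in ND14. It did not pass (-1.34 ± 0.42, adjusted p = 0.0895) except without CSD5 replicate 1 (adjusted p = 0.000859). Tchh, which encodes trichohyalin of the hair follicle's inner root sheath, read between 5.69 and 6.42 on the 9 arrays (-0.20 ± 0.16, adjusted p = 0.607). The inner root sheath keratins Krt71, Krt25, Krt27 and Krt73 averaged between 2.31 and 2.58 per array. Flg2, a filaggrin-like gene, stayed at or below the array medians (-0.19 ± 0.22, adjusted p = 0.761), as did Lce6a (-0.07 ± 0.14, adjusted p = 0.862).

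Promoter windows were searched for 4 short motifs on both strands over their whole length. TGANTCA is a loose form of the AP-1 motif bound by Fos and Jun proteins, whose usual letters are TGAGTCA or TGACTCA. It was in the windows of 14 of 36 members, in 38.9% of them, and of 7.81% of all RefSeq windows. They were 6 of 6 Sprr2, 2 of 2 Sprr1, 4 of 6 S100-fused genes, Lor and Ivl, and 0 of 17 Lce genes. Sprr1b, Flg2, Flg and Tchhl1 held only TGAATCA and Rptn only TGATTCA, which are not the usual letters. TATAAA, the TATA box, was in 47.2% of member windows and 13.6% of all windows. AACNGGTT, a grainyhead-like motif, was in 2.78% of member windows and 2.09% of all windows, and TTGCNNAA, a C/EBP motif, in 11.1% of member windows and 10.8% of all windows. The sequences shown carry the TGANTCA and TATA letters in capitals, and hold genes that were lower in CSD14 (Lor, Sprr1a, Sprr2e and Rptn) beside Sprr2k, which missed the threshold, and Ivl, which did not differ detectably.
Lor (chr3:92083143-92083242, minus strand): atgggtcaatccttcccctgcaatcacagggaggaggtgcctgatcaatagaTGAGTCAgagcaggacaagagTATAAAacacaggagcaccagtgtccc
Sprr1a (chr3:92485882-92486031, minus strand): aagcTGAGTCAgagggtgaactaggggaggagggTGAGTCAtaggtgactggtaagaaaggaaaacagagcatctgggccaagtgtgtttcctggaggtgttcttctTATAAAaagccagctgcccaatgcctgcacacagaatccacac
Sprr2e (chr3:92351933-92352142, plus strand): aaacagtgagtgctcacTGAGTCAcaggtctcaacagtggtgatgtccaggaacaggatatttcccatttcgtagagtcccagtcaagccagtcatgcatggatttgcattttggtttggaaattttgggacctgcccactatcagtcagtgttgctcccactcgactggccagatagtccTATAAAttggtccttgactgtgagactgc
Sprr2k (chr3:92432372-92432581, plus strand): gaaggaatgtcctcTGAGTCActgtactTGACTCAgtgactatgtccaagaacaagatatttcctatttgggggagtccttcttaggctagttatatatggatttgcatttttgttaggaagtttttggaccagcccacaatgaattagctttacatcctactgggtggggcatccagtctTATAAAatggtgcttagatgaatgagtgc
Rptn (chr3:93393489-93393698, plus strand): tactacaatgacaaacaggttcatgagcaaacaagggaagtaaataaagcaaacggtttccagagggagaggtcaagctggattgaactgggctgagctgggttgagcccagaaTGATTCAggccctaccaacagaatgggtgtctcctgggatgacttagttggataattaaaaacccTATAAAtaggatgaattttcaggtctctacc
Ivl (chr3:92573736-92573885, minus strand): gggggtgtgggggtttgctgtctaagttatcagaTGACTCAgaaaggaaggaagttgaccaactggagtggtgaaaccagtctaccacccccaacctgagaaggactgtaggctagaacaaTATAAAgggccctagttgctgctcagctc

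Counted from the start, the AP-1 letters begin at base -48 in Lor, at -146 and -116 in Sprr1a, at -116 in Ivl, and between -198 and -193 in the 6 Sprr2 genes with a window, with a second match at -182 in Sprr2k. The letters were thus present both in genes that were called and in Ivl. A match is no evidence that a factor was bound.

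CSD5 organoids were set against both other groups, with which they share arrays in the fit. In CSD14 over CSD5, 5 of 40 members were lower and 0 higher at an adjusted p under 0.05 by limma, where 0.496% of all transcript clusters were lower, with a median log2 fold change of -1.36 for the members and 0.09 for all. The 5 were Lor, Sprr3, Sprr1a, Lce3a and Crct1. Without CSD5 replicate 1, 9 were lower, where 1.24% of all were, and the median was -0.22. These were the same 5 with Ivl, Lce3c, Lce3f and Rptn. Only 2 were lower (Sprr1a and Lce3a) without CSD14 replicate 1 or without CSD14 replicate 2, and only Lce3a without CSD14 replicate 3. In those fits 49, 69 and 55 of all 34472 transcript clusters were lower. At the study's threshold, 15 members were lower, where 0.833% of all were. In a fit of only the 6 arrays compared, and with no moderation, 0 members were lower, so none of the 5 calls held there. Only 26 and 34 of all transcript clusters were lower in these 2 settings.

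In CSD5 over ND14, 0 of 40 members were called in either direction by limma, where 0% of all transcript clusters were called lower, and the median log2 fold change was -1.74 for the members and -0.09 for all. At the study's threshold 26 members were lower, where 1.22% of all were. Without CSD5 replicate 1, 30 members were lower, where 6.27% of all were, and 1 was higher, where 3.40% of all were. The 1 higher gene was Ivl, with a log2 fold change of 0.99 (adjusted p = 0.00453). The counts of this comparison therefore rest on whether that 1 array is counted. The arrays compared with CSD14 and with ND14 are the same, and the values of the members stand side by side in the plot of the levels.

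For the 27 genes lower in CSD14 than in ND14, each CSD5 array was placed between the CSD14 mean (0%) and the ND14 mean (100%). This places the arrays and is no test. CSD5 replicate 1 had a median position of 96.6%, and 13 of its 27 values were at or above the lowest ND14 array. CSD5 replicate 2 had a median of 25.7% and CSD5 replicate 3 of 13.6%, with 9 and 14 values at or below the highest CSD14 array and 0 within or above the ND14 range for either. Over all transcript clusters, their mean correlations were 0.9822 and 0.9769 with the CSD14 arrays and 0.9703 and 0.9642 with the ND14 arrays. The same placement was not made for all clusters, so it is not shown to be particular to the complex.

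By subfamily the positions in those 2 arrays overlapped, and no difference between subfamilies was tested. For the 6 Lce1 genes called, the median position was 0.8% in CSD5 replicate 2 and -2.0% in replicate 3, with Lce1a2 at 31.1% and 34.6%. Of these 6, 4 (Lce1a1, Lce1a2, Lce1e and Lce1m) were at or below the array medians in CSD14. For the Lce3 genes the median was 26.9% and 18.4%, for the Sprr2 genes 24.1% and 6.2% and for the 3 S100-fused genes 16.8% and 14.8%. In replicate 2 the Lce1 genes ranged from -17.8% to 31.1%, the Lce3 genes from -11.7% to 62.2% and the Sprr2 genes from -6.4% to 41.0%. Lce3a (62.2% and 55.2%), Crct1 (66.2% and 40.1%), Sprr1a (63.1% and 50.7%), Sprr3 (54.8% and 43.3%) and Lor (41.9% and 41.5%) lay nearer the middle. These are the genes called lower in CSD14 over CSD5, from the same values, so their place is no separate result. Flg (44.1% and 44.1%) and Sprr2b (35.1% and 41.8%), which were not called there, lay near Lor. Within Lce3, Lce3d lay at -11.7% and -2.3%.

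**Figure D4:**
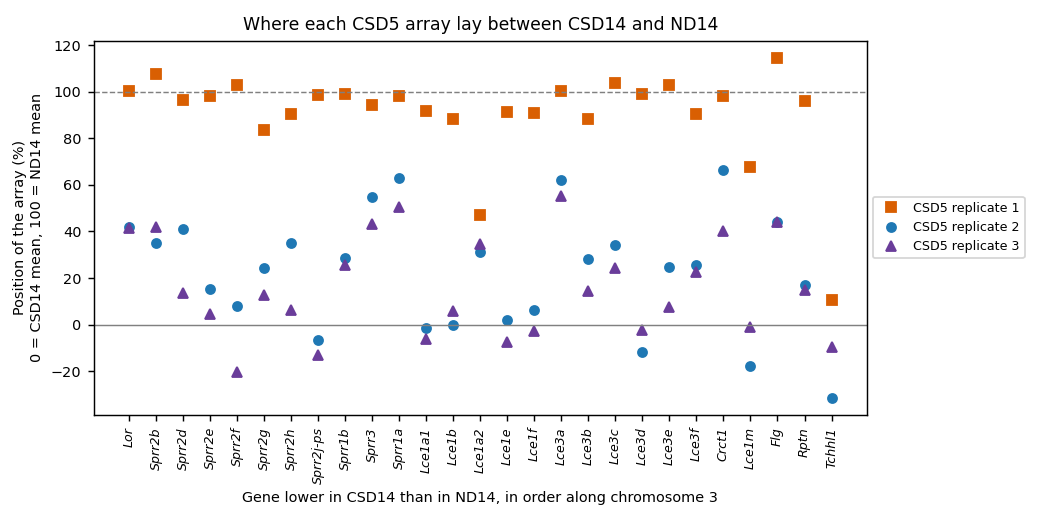
Position of each CSD5 array (symbols) between the CSD14 mean (0%) and the ND14 mean (100%) for the 27 genes lower in CSD14 than in ND14, in order along chromosome 3. Replicate 1 lies near 100% for most genes, whereas replicates 2 and 3 lie near 0% for most Lce1 genes and between 40.1% and 66.2% for Lor, Sprr3, Sprr1a, Lce3a, Crct1 and Flg.

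Genes that take part in assembling the envelope, nearly all from elsewhere in the genome, were lower as well. All 21 genes of a list of cornified envelope assembly were measured, and 18 were lower and 0 higher in CSD14 than in ND14, with a median log2 fold change of -3.19, where 3.66% of all transcript clusters were lower. Without CSD5 replicate 1, 18 were lower, where 5.40% of all were. One gene of the list, Kprp, lies among the Lce1 genes. Evpl, which encodes the envelope scaffold envoplakin, read 4.59, 4.66 and 4.59 in CSD14, 6.75, 5.98 and 5.76 in CSD5 and 7.18, 6.97 and 7.07 in ND14 (log2 fold change of CSD14 over ND14 -2.46, adjusted p = 0.00042 by limma). Cnfn, cornifelin of the envelope, differed by -6.29 (adjusted p = 0.000365), Alox12b, a lipoxygenase needed for the lipid layer of the envelope, by -7.68 (adjusted p = 0.000549), and Cdsn, corneodesmosin of the junctions between cornified cells, by -7.19 (adjusted p = 0.000559). Tgm1, the transglutaminase that crosslinks the envelope, read 5.53, 5.28 and 5.68 in CSD14, 9.57, 7.64 and 7.44 in CSD5 and 9.68, 9.23 and 9.64 in ND14 (-4.02, adjusted p = 0.00124). The 3 that did not pass were Spink5, Csta1 and Krt1. In CSD14 over CSD5, 7 of the 21 were lower, where 0.496% of all were, and 11 without CSD5 replicate 1, where 1.24% of all were.

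Keratins were measured as markers of stratified epithelia. Krt1 and Krt2 of the upper epidermis stayed between 2.17 and 3.35 on all arrays, near the array medians, and Krt10, their partner, read 5.20, 4.62 and 4.74 in CSD14, 6.80, 4.25 and 4.33 in CSD5 and 7.02, 7.04 and 7.05 in ND14 (-2.18, adjusted p = 0.038 by limma). Krt13, a keratin of the upper layers of moist stratified epithelia such as the oesophagus, read 8.45, 8.79 and 8.75 in CSD14, 11.52, 10.76 and 10.70 in CSD5 and 11.61, 11.44 and 11.63 in ND14 (-2.90, adjusted p = 0.000259). Its partner Krt4 differed by -1.23 (adjusted p = 0.00221). Of the 5 basal cell markers measured, Krt14 (-1.24, adjusted p = 0.00133) and Trp63 (-0.53, adjusted p = 0.0179) were lower and Ngfr was higher (2.06, adjusted p = 0.0132), the same counts as without CSD5 replicate 1. Krt15 (-0.11, adjusted p = 0.655) and Dlk2 (0.18, adjusted p = 0.572) did not pass. Of all transcript clusters, 3.66% were lower and 5.48% higher, and 5.40% and 6.47% without CSD5 replicate 1. Krt5 was not named by a single-symbol transcript cluster here.

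Several markers of lung cell types were higher in CSD14 than in ND14, where 5.48% of all transcript clusters were higher and 3.66% lower. Of 8 alveolar type 2 markers, 3 were higher and 0 lower in CSD14 than in ND14, Sftpd by 2.08 (adjusted p = 0.00278), Sftpb by 2.05 (adjusted p = 0.00458) and Abca3 by 1.11 (adjusted p = 0.00654 by limma). Without CSD5 replicate 1, 4 were higher and 2 lower, where 6.47% of all were higher and 5.40% lower. Sftpc, the surfactant protein that defines the type, read 4.55, 4.25 and 3.95 in CSD14, 9.49, 11.29 and 11.49 in CSD5 and 5.74, 5.79 and 5.79 in ND14 (-1.52 in CSD14 over ND14, adjusted p = 0.0597). The mean of the 8 markers per array was 5.65 to 5.78 in CSD14, 6.10 to 7.59 in CSD5 and 5.18 to 5.27 in ND14. Of 4 club cell markers 3 were higher in CSD14 than in ND14, and of 5 ciliated cell markers 4. Of 6 alveolar type 1 markers, 2 were higher and 2 lower. The counts of these 3 lists were the same without CSD5 replicate 1. The part of these changes in the levels of the complex was not tested.

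Among 29 measured transcription factors of terminal epidermal differentiation, 11 were lower and 2 higher in CSD14 than in ND14, with a median log2 fold change of -0.53, where 3.66% of all transcript clusters were lower and 5.48% higher. Without CSD5 replicate 1, 15 were lower and 2 higher, where 5.40% of all were lower and 6.47% higher. Elf3, an epithelial ETS factor, was higher (2.01, adjusted p = 0.00246 by limma), as was Ahr, the aryl hydrocarbon receptor (1.03, adjusted p = 0.00383). Grhl3, a grainyhead-like factor of the skin barrier, read 5.46, 5.39 and 5.61 in CSD14, 8.85, 6.82 and 6.22 in CSD5 and 9.06, 8.98 and 8.69 in ND14 (-3.42, adjusted p = 0.00375). Ovol1, a repressor active in differentiating keratinocytes, differed by -2.18 (adjusted p = 0.00379), and Prdm1, a transcriptional repressor that acts in late epidermal differentiation, by -2.69 (adjusted p = 0.00381). The AP-1 genes were uneven, with Jun (-0.86, adjusted p = 0.0067) and Fosl2 (-0.69, adjusted p = 0.00589) lower, while Junb (-0.29, adjusted p = 0.244) and Fos (0.43, adjusted p = 0.546) did not pass.

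The S100 genes that flank the envelope genes in the complex encode small calcium-binding proteins and were less uniform. Of 13, 5 were lower and 1 higher in CSD14 than in ND14, with a median of -0.13, against the same 3.66% and 5.48% of all. Without CSD5 replicate 1, 5 were lower and 2 higher, against 5.40% and 6.47% of all. S100a7a, mouse relative of psoriasin, read 4.38, 4.33 and 3.92 in CSD14, 9.22, 6.61 and 6.15 in CSD5 and 9.20, 9.38 and 9.33 in ND14 (-5.09, adjusted p = 0.00169 by limma). S100a9, a subunit of the antimicrobial calprotectin, differed by -3.74 (adjusted p = 0.00886) and S100a16 by -0.85 (adjusted p = 0.00458). S100a1 was higher (1.72, adjusted p = 0.00221), while S100a6, S100a10 and S100a11 did not pass, with log2 fold changes between -0.19 and 0.15.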

How the data were processed

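RNA of lung organoids (10 ng of total RNA per array) was measured on 9 Affymetrix mouse gene arrays. Each deposited value is the log2 signal of a transcript cluster, made by the authors with Transcriptome Analysis Console 4.0.3 per their methods. The algorithm and genome build are not given in the sources used here. The values were used without further scaling. Of 34472 transcript clusters, 23521 carry 1 symbol, 1820 several and 9131 none. A gene with several clusters was represented by that with the highest mean, and 7 clusters that carry several symbols, of which some match the rule, were kept apart.

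Groups were compared with limma 3.58.1 (R 4.3.3), with 1 mean per group over 9 arrays, empirical Bayes moderation and Benjamini-Hochberg adjustment over all clusters. The spread behind each SE thus includes the CSD5 arrays, also in CSD14 over ND14. The number of arrays limits the precision. The procedure was tested on simulated data. Alternatives were a fit of 6 arrays, no moderation, limma-trend, median centring, quantile normalization, a filter at the 40th percentile, array weights, a replicate block, a fit without each single array, a mean of a gene's clusters, and the study's threshold, with ties at a fold change of exactly 2 left out. Promoter windows came from RefSeq (GRCm38.p6). Windows were aligned with Biopython 1.88, and figures drawn with matplotlib 3.10.9.

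The members and lists were chosen with earlier results of these data known. Genes were named by a rule: every single and S100-fused gene, and in each other subfamily the member with the highest mean, that with the largest change in CSD14 over ND14, and up to 4 that did not pass. From the lists, up to 4 with the smallest adjusted p were named. Tgm1, Kprp, Ahr, the AP-1 genes, Krt10, S100a6, S100a10, S100a11, and the other members outside the rule were chosen after their values were seen.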

Additional observations from a re-analysis of the deposited data

How the results depend on the processing

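With 3 arrays per group, the call depended on how the spread was estimated, while the direction of the members' median did not change in any of the 3 comparisons under any alternative run. In CSD14 over ND14, 27 members were lower, 8 with no moderation and between 27 and 30 under the other settings that keep all 9 arrays or fit the 6 arrays compared. Of all transcript clusters tested, 397 were lower with no moderation and between 841 and 2069 under those other settings. In CSD14 over CSD5, 5 were lower, 0 in a fit of only the 6 arrays compared, 0 with no moderation, 8 with array weights and 15 at the study's threshold. The counts over all 34472 transcript clusters were 26 in the fit of 6 arrays, 34 with no moderation, 681 with array weights and 287 at the study's threshold. In CSD5 over ND14, 0 were called, and with array weights 30 were lower and 1 higher, while 26 were lower at the study's threshold. Of all 34472 transcript clusters, 3617 were lower and 2283 higher with array weights, and 419 were lower at the study's threshold. With 1 array left out, the count lower ranged from 18 to 30 in CSD14 over ND14, from 1 to 9 in CSD14 over CSD5 and from 0 to 30 in CSD5 over ND14, where the count higher ranged from 0 to 1. Over all transcript clusters, in the same order, the count lower ranged from 661 to 1861, from 49 to 429 and from 0 to 2160. The count higher in CSD5 over ND14 ranged from 0 to 1173. The members' medians then ranged from -3.89 to -3.41, from -2.11 to -0.22 and from -2.55 to -1.18. The cause of these shifts was not tested. Of the named members called in CSD14 over ND14, Lce1e and Flg lost the call without any 1 of the 6 CSD14 and ND14 arrays (adjusted p up to 0.0536 and 0.0992 by limma), Sprr1b without CSD14 replicate 1 or 3 or ND14 replicate 1 or 3 (up to 0.0777), Sprr2b without CSD14 replicate 1 or 3 or ND14 replicate 3 (up to 0.0533), Tchhl1 without CSD14 replicate 1 or ND14 replicate 1 or 2 (up to 0.0629) and Lce1f without CSD14 replicate 2 or ND14 replicate 3 (up to 0.0611). Each of these genes kept the call without CSD5 replicate 1, Lce1e with an adjusted p of 4.75e-08 and Flg with 0.00521. With no moderation all members but Lor, Sprr2g, Sprr3, Sprr1a, Lce1a2, Lce3a, Lce3f and Crct1 lost the call, and Flg lost it at the study's threshold. No named member reversed a called direction. The numbers of the replicates gave no sign of pairing. The deviations of same-numbered arrays correlated between -0.13 and 0.06, and those of differently numbered arrays between -0.11 and 0.10. With 3 arrays per group this cannot exclude pairing. With the replicate number as a block, 28 members were lower in CSD14 over ND14, 5 in CSD14 over CSD5 and 0 in CSD5 over ND14. The counts over all transcript clusters were 1147, 121 and 0. The filter at the 40th percentile left 34 of the 40 members. No shares of member promoters with a motif differed between the whole window and its 250 bases before the start. Signal near the array median limits what could be seen for the weak Lce1 genes, Lce6a, Lelp1, Sprr4 and Flg2.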
